A study of Danio rerio with 2 samples.

Results

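The homeobox genes described here act along the dorsoventral axis of the zebrafish embryo: vent, vox, ved, gsc, flh, dharma and eve1. They were taken by gene symbol from the authors' deposited table, which gave 7 of its 32571 rows. The match by symbol used no measured value, but the genes were chosen with earlier results of these data known. RNA came from whole embryos of the AB strain at 6 hpf (hours post fertilization), early in gastrulation. One group was mock-injected and served as the control, and the other was injected with Dcp2-DN, in the field a dominant-negative form of Dcp2. Dcp2 is the enzyme that removes the cap of an mRNA before its decay, and the question was which transcripts change when it is inhibited. Total RNA of pooled embryos (40 to 50 per extraction) was depleted of ribosomal RNA. Each group had 1 sample entry and 1 deposited FPKM value per gene (fragments per kilobase of transcript, scaled to mapped fragments), although the design text names 3 replicates. The values therefore carry no SD and no n, the depth is unknown, and the only measure of error is the authors' own Cuffdiff test. How many libraries entered that test is not stated, so its p-values may not reflect the spread between replicates, and that spread may itself be technical. A gene is described as called, or as having risen or fallen, where the authors' deposited table marked it significant at a q-value under 0.05.

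The dorsoventral axis of the fish embryo is set by opposed repressors. On the dorsal side, maternal beta-catenin turns on dharma (also named bozozok), a homeobox repressor needed to form the organizer, and the organizer expresses gsc (goosecoid), a repressor of ventral fate. The gene flh (floating head, now also named noto) is expressed in the organizer and the notochord precursors and is required for the notochord. On the ventral and lateral side, BMP and Wnt8 signals maintain vox, vent and ved, which encode related repressors with overlapping function that keep organizer genes such as gsc and chd off. The gene eve1, related to even-skipped of the fly, marks the ventral and posterior margin and depends on BMP signalling. In RNA from whole embryos, a smaller number of cells expressing a gene and less RNA per cell cannot be told apart.

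Of the 7 genes, 3 were called in the authors' deposited table. The dorsal genes flh and gsc rose in Dcp2-DN embryos, and the ventral gene eve1 fell. The repressor genes vox, vent and ved and the organizer gene dharma were not called. All 7 rows had a test, and 24.9% of the 14810 tested rows were called (20.6% higher and 4.35% lower). Among the 10183 tested rows whose mean FPKM lay within the range of the 7 genes (5.11 to 345 FPKM), 28.4% were called (23.7% higher and 4.73% lower). By value 5 of the 7 genes were higher in Dcp2-DN embryos and 2 lower. Their median log2 ratio was 0.24, against 0.12 for all tested rows. Log2 ratios are of Dcp2-DN over mock with a pseudocount of 0.1 FPKM, and folds are plain ratios of FPKM.

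**Figure D1:**
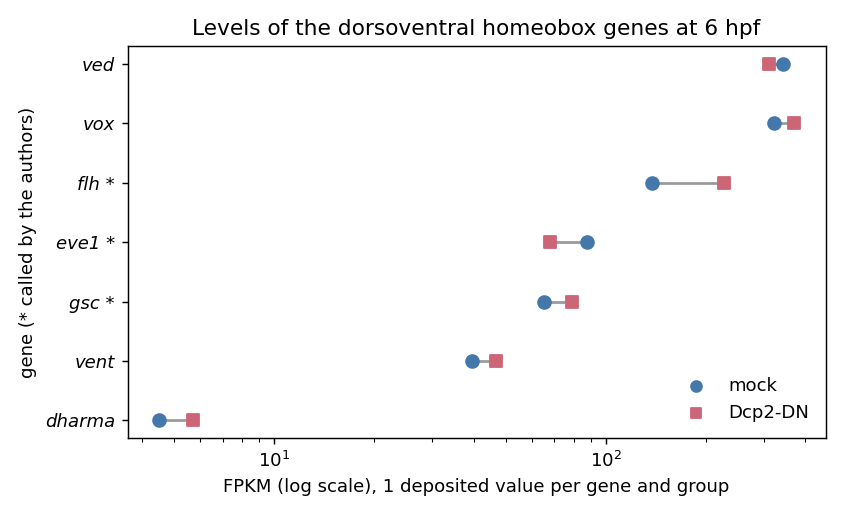
FPKM (log axis) of the 7 genes in mock (circles) and Dcp2-DN embryos (squares), ordered by mock level, with 1 deposited value per gene and group and an asterisk on genes called by the authors. The line is longest for flh, from 138 to 228 FPKM, while ved and eve1 are the genes whose Dcp2-DN value lies to the left of mock.

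Among the organizer genes, flh had the widest difference. Mock embryos held 138 FPKM of flh and Dcp2-DN embryos 228 FPKM, a rise of 1.65-fold or 0.72 on the log2 scale. The authors' deposited table gave it p = 5e-05 and q = 0.000593, the lowest values in that table, which 1249 rows shared. Its log2 ratio was above that of 90.3% of all tested rows. The row is ENSDARG00000021201, at chr13:14837120-14839117 (Zv9 coordinates of the locus as the authors' file gives them).

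The organizer gene gsc stood at 65.0 FPKM without and 79.0 FPKM with Dcp2-DN, a rise of 1.22-fold or 0.28 on the log2 scale. In the authors' deposited table it had p = 0.01185 and q = 0.0483, so it passed the threshold narrowly: the highest p among all called rows was 0.01245. It did not pass at a q-value under 0.01, which flh and eve1 did. The gene lies at chr17:19173167-19175674 (ENSDARG00000059073). Because flh rose by more than gsc, the ratio of their FPKM values went from 2.13 to 2.88. The difference between these 2 ratios was not tested.

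The gene dharma was the least abundant of the 7. It measured 4.51 FPKM in mock embryos and 5.71 FPKM under Dcp2-DN, a ratio of 1.27. The authors' deposited table did not call it (p = 0.2015, q = 0.374). Its fold by value exceeded that of gsc. The mock level of dharma was above that of 27.8% of tested rows, against 86.5% for gsc. Whether level bears on the lack of a call was not tested. Its locus is chr15:28360390-28361587 (ENSDARG00000040955).

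Of the ventral repressors, vox measured 321 FPKM in mock embryos and 369 FPKM under Dcp2-DN, a ratio of 1.15. With p = 0.04135 and q = 0.122 in the authors' deposited table, vox was left without a call. Its neighbour vent measured 39.4 FPKM in mock embryos and 46.6 FPKM under Dcp2-DN, a ratio of 1.18. The authors' deposited table gave vent p = 0.0225 and q = 0.0787, which made it the gene closest to the threshold among those not called. The loci of vox (chr13:54046955-54049197, ENSDARG00000014277) and vent (chr13:54056771-54063429, ENSDARG00000017164) are 7574 bases apart and adjacent in the table. The gene vox was 8.13 times as abundant as vent in mock and 7.92 times in Dcp2-DN embryos.

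The third gene of this kind, ved, was the most abundant of the 7 in mock embryos, at 342 FPKM. In Dcp2-DN embryos it was at 310.1 FPKM, lower by a factor of 1.1, and the authors' deposited table did not call it (p = 0.16445, q = 0.326). Its direction depended on the scaling: the log2 ratio was -0.14 as deposited and 0.077 when centred on 77 ribosomal protein genes. The row (ENSDARG00000096498) carries the span chr10:46328646-46360626, the same span as the polymerase gene polm. The values of polm were 6.75 FPKM without and 9.06 FPKM with Dcp2-DN, and it was not called. How the authors' counting split reads between these overlapping genes was not given, so the value of ved is less certain than those of the other 6, whose loci overlapped no other row.

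Added together, vox, vent and ved came to 702 FPKM without and 726 FPKM with Dcp2-DN, a ratio of 1.03. Within that sum ved made up 48.7% in mock and 42.7% in Dcp2-DN embryos, vox 45.7% and 50.9%, and vent 5.61% and 6.42%. The sum was 10.8 times the level of gsc in mock and 9.19 times in Dcp2-DN embryos. These ratios have no replicate error and were not tested.

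The ventral and posterior gene eve1 measured 87.6 FPKM in mock embryos and 67.7 FPKM under Dcp2-DN, 1.29-fold lower or -0.37 on the log2 scale. The authors' deposited table called this fall with p = 0.00085 and q = 0.00636. Only 6.5% of tested rows had a lower log2 ratio. The locus of eve1 is chr3:23933175-23935071 (ENSDARG00000056012). The ratio of eve1 to flh was 0.634 without and 0.297 with Dcp2-DN, because one gene fell and the other rose.

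In mock embryos the order of levels was ved, vox, flh, eve1, gsc, vent and dharma. In Dcp2-DN embryos it was vox, ved, flh, gsc, eve1, vent and dharma, so vox passed ved and gsc passed eve1. With 1 value per group, whether neighbours in this order differ beyond replicate spread cannot be given. Levels spanned a factor of 75.9 between ved and dharma in mock.

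**Figure D2:**
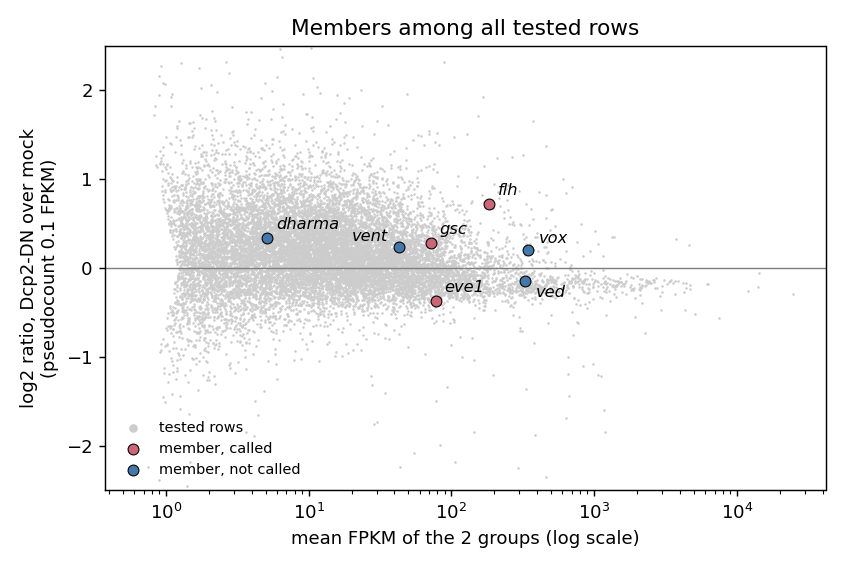
Mean FPKM of the 2 groups (log axis) against the log2 ratio of Dcp2-DN over mock for all tested rows (grey) and the 7 genes (red where called by the authors, blue where not), with 43 rows beyond the axis limits of 2.5. The grey cloud drops below 0 at high levels, where flh (0.72) lies near its upper edge, vox (0.20) in its upper part and ved (-0.14) near its middle.

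Ratios in the table varied with level, so each gene was also set beside the tested rows whose mean FPKM was within 2-fold of its own. Around flh there were 1023 such rows with a median log2 ratio of -0.099, and 10.9% of them were called higher; flh lay 0.82 above that median and above 97.4% of the rows. Around gsc the median of 2669 rows was 0.012, and gsc lay above 78.6% of them. Around eve1 the median of 2499 rows was 0.0022, 7.40% were called lower, and only 3.76% had a lower ratio than eve1. Both the rise of flh and the fall of eve1 stood toward the edges of the rows at their level, whereas gsc did not.

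The uncalled genes differed in the same comparison. Around vox the median of 562 rows was -0.15, and vox lay 0.36 above it and above 87.4% of the rows. Around ved the median of 594 rows was also -0.15, so ved, at -0.14, lay close to the middle (above 51.9% of the rows). Around vent the median of 3810 rows was 0.071, and vent lay above 69.5% of them. For dharma the median of 4502 rows was 0.21, and it lay above 61.4%. By this description vox was the uncalled gene farthest from the rows at its level.

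Genes listed for the dorsal organizer and axial mesoderm, Nodal and FGF signalling genes among them, went both ways. Where in the embryo they were expressed was not measured. Of 19 tested genes on that list, the authors' deposited table called 4 higher, 5 lower and 10 not at all. The 4 rises are 21.1% of the list, close to the 20.6% of all tested rows, and the 5 falls are 26.3%, against 4.35%. Comparisons with all rows, here and for the lists below, were not matched for level. Of the tested rows within 2-fold of a gene's level, 2.89% were called lower around dharma and 11.8% around ved. The list's median log2 ratio was -0.097 over 19 rows of at least 1 FPKM, against 0.12 for all such rows. The list does not hold gsc and flh. Its rises were the Nodal ligand gene ndr1 (17.8 to 28.8 FPKM, 1.62-fold) and the Nodal antagonist gene lft2 (1.73-fold). The FGF ligand genes fgf8a (56.4 to 85.5 FPKM, 1.51-fold) and fgf3 (21.2 to 27.3 FPKM, 1.29-fold) also rose. The BMP antagonist chd, an organizer gene that vox, vent and ved repress, fell from 129.5 to 102 FPKM (1.27-fold lower), while gsc and flh rose. The Wnt antagonist gene frzb fell from 14.2 to 9.91 FPKM (1.43-fold lower). Other falls were lft1 (1.28-fold lower), ntlb (1.93-fold lower), whose locus 1 other row shared, and the head patterning gene otx2, which had the largest fold of the 5 at low levels (2.08 to 0.794 FPKM, 2.62-fold lower). The Brachyury gene ntla, which acts with flh in the notochord, was not called, at 314 and 273 FPKM.

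**Figure D3:**
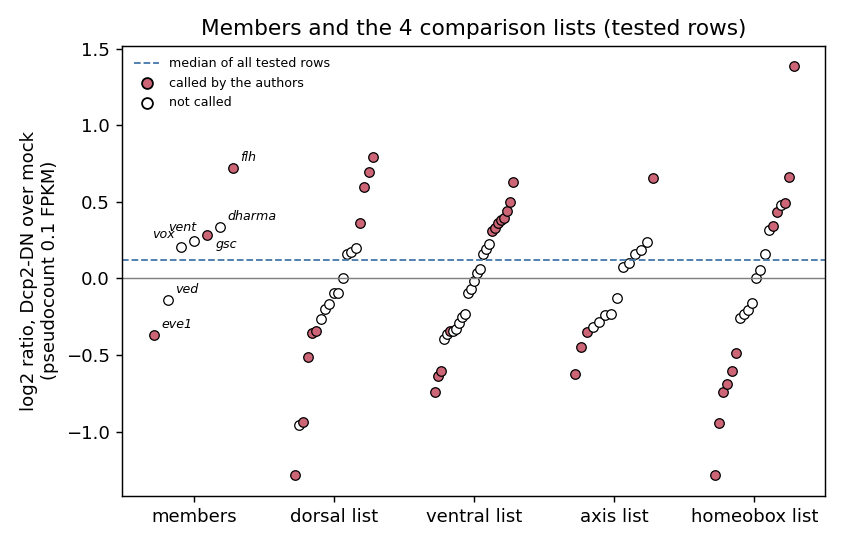
Log2 ratio of Dcp2-DN over mock for the 7 genes and for the tested rows of the 4 comparison lists (filled where called by the authors), each sorted from low to high, with the median of all tested rows (0.12) dashed. In each of the 4 lists called genes stand at both ends, and the 7 genes run from eve1 at -0.37 to flh at 0.72.

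Genes of the BMP pathway and of ventral fate also went both ways. The authors' deposited table called 8 of their 27 tested members higher (29.6%, against 20.6% of all tested rows) and 4 lower (14.8%, against 4.35%), with a median log2 ratio of -0.010 over 28 rows. Among the rises were the ligand gene bmp2b (79.6 to 104 FPKM, 1.31-fold) and szl, an inhibitor of the protease that cleaves Chordin (16.7 to 22.7 FPKM, 1.36-fold). A feedback inhibitor gene and a target gene of the pathway, smad7 (1.55-fold) and id1 (1.41-fold), were also called higher. The ligand gene bmp4 fell from 40.5 to 31.9 FPKM (1.27-fold lower). The ligand gene bmp7a was not called, at 126 and 132 FPKM. The other falls were msxc, a homeobox gene (3.22 to 2.08 FPKM, 1.55-fold lower), and the posterior genes cdx4, a caudal-type homeobox gene (38.3 to 22.9 FPKM, 1.67-fold lower), and tbx6l, a T-box gene of the ventrolateral margin (6.74 to 4.30 FPKM, 1.57-fold lower). The ligand gene wnt8a, which with BMP maintains vox and vent, had 2 rows that share 1 locus and were not called. Of these the first measured 29.8 and 34.9 FPKM and the second 45.9 and 37.6 FPKM, mock first.

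**Figure D4:**
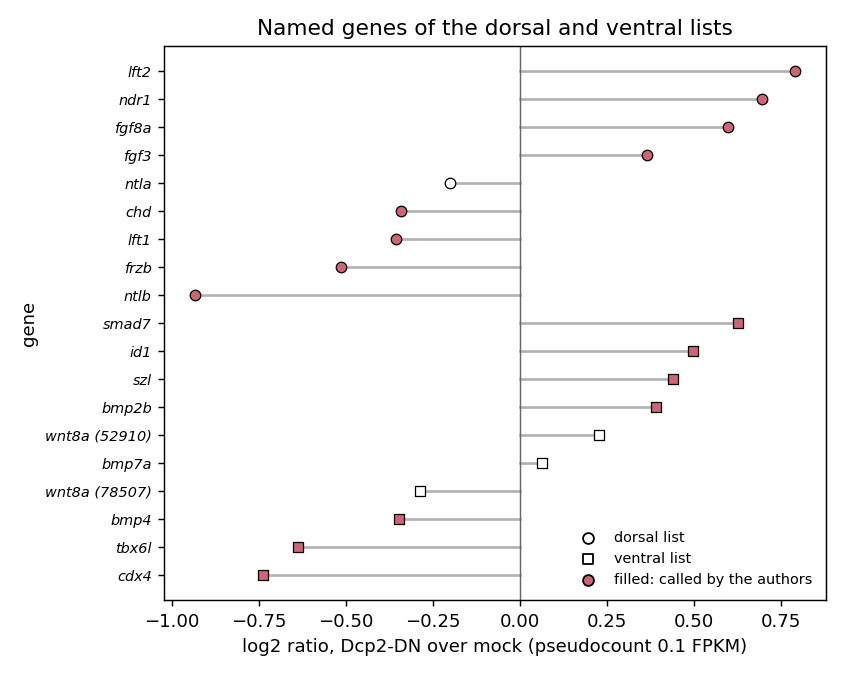
Log2 ratio of Dcp2-DN over mock for the named tested genes of the dorsal (circles) and ventral (squares) lists, filled where called by the authors; the 2 wnt8a rows are told apart by the end of their gene ID. The genes otx2 and msxc, below 5 FPKM in both groups, are not drawn. Among the genes drawn, both lists hold called genes on each side of 0, from lft2 (0.79) to ntlb (-0.93).

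Genes of the maternal beta-catenin pathway, which acts upstream of dharma, and Wnt targets were taken as a further list. The authors' deposited table called 1 of its 14 tested members higher (7.14%, against 20.6% of all tested rows) and 3 lower (21.4%, against 4.35%), with a median log2 ratio of -0.18. The beta-catenin gene ctnnb1 fell from 436 to 341 FPKM (1.28-fold lower), and tcf7l1a, a repressor of beta-catenin targets, fell from 40.6 to 29.8 FPKM (1.36-fold lower). The Wnt target gene sp5l fell from 91.6 to 59.5 FPKM (1.54-fold lower). The rise was in sybu (25.6 to 40.4 FPKM, 1.58-fold), whose maternal product is needed to transport dorsal determinants in the egg.

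Among 20 tested genes of other homeobox families, calls in the authors' deposited table were 5 up (25.0%, against 20.6% of all tested rows) and 6 down (30.0%, against 4.35%), with a median log2 ratio of -0.00094 over 21 rows. Rises included mxtx2, a regulator of the yolk syncytial layer (2.62-fold), nanog, a maternal pluripotency factor (388 to 613 FPKM, 1.58-fold), gbx1 (7.32 to 10.3 FPKM, 1.41-fold) and sebox (1.35-fold). Falls included the LIM homeobox gene lhx5 (1.93-fold lower), otx1a (27.5 to 19.6 FPKM, 1.4-fold lower) and cdx4. The falls of otx2, msxc and cdx4 are the same rows already counted on the dorsal or ventral list. The rise of flh was larger than that of 4 of these 5, the exception being mxtx2. The gene vsx1, a repressor of flh in the fish, had no test and stood at 0.181 and 0.302 FPKM.

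The 4 lists hold 94 distinct rows, tested or not, of which 9 are on more than 1 list. The 75 distinct tested rows were also ranked by distance to each of the 7 genes over their log2 levels in both groups. This distance rests on 2 values per gene, which also give the ratio. A near gene therefore tends to share the direction by construction, and a shared direction is not a separate result. Nearest to vent was axin1 (39.4 and 44.7 FPKM, distance 0.059). Nearest to eve1 was sp5l (distance 0.20), which also fell. The gene closest to gsc was fgf8a (distance 0.23), which also rose. That closest to both ved (0.22) and vox (0.43) was ntla (314 and 273 FPKM, not called). By value ntla was lower in Dcp2-DN embryos, as was ved, whereas vox was higher. For flh it was mxtx1 (137 and 152 FPKM, distance 0.58), and for dharma tll1 (4.78 and 3.75 FPKM, distance 0.60). By value tll1 was lower in Dcp2-DN embryos, whereas dharma was higher. The distances for flh and dharma were the largest of the 7.

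Other measures were compared between the same groups. Of the 2 rows named dcp2, ENSDARG00000089419 stood at 0.0398 FPKM without and 212 FPKM with Dcp2-DN. The other, ENSDARG00000039016, stood at 13.9 and 16.7 FPKM, mock first. Neither row was called in the authors' deposited table. Whether these values hold reads of the injected Dcp2-DN was not tested. Of 9 tested maternal mRNAs that are cleared in the early embryo, the authors' deposited table called 6 higher and none lower. The 6 rises are 66.7%, against 20.6% of all tested rows, and the summed level was 646 FPKM without and 1190.1 FPKM with Dcp2-DN. Enveloping layer markers went the other way, with 8 of 11 called lower (72.7%, against 4.35% of all tested rows) and none higher there. Their summed level was 4344 and 3521 FPKM, mock first. Of 7 yolk syncytial layer markers, 1 was called higher (14.3%) and 2 were called lower (28.6%) there (summed level 787 and 788 FPKM). The rise was mxtx2 (35.8 to 93.6 FPKM), the same row already counted on the homeobox list. The falls were apoa1a (46.7 to 35.3 FPKM) and apoc1l (339 to 282 FPKM), so the nearly equal sums hold changes in both directions. These shares were not matched for level, and the enveloping layer marker krt18 stood at 1519 FPKM in mock. No marker on these lists was at 0. The part of these shifts in the values of the 7 genes was not tested.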

How the data were processed

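Whole-embryo RNA was measured in a mock and a Dcp2-DN group at 6 hpf, grouped by sample title. The deposited values carry the labels mockB and DCP2, which were read as mock and Dcp2-DN. The tools named by the submitters' processing notes are TopHat 1.4.0 together with Cuffdiff 2.1.1, on the builds Zv9 and danRer7 (names of one assembly). Annotation and strand use in counting are not given in the sources used here. What the authors deposited, per the file headers, is 1 FPKM for each gene in each group beside a p-value, a q-value, a status and a call. In all 32571 rows the call followed from status OK and a q-value below 0.05, and Benjamini-Hochberg adjustment of the deposited p-values over the 14810 tested rows gave the deposited q-values to within 5.21e-07. How many libraries entered each value was not given, so no test of replicates was run.

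From these values, log2 ratios (pseudocount 0.1 FPKM), folds, list counts and list medians (mean of at least 1 FPKM) were computed with Python 3.11.15, NumPy 2.4.6 and pandas 2.3.3, and drawn with matplotlib 3.10.9. The code for log2 ratios, medians and counts of calls was checked on a simulated table with changes and calls planted without noise. List matching, the comparison with rows of like level and the distances were not part of that check. Coordinates are locus spans on Zv9, written as in the deposited file; the base from which starts are counted is not stated. List genes were matched by symbol. Over the 4 lists (dorsal, ventral, axis and homeobox), 8 entries matched no row, a name being counted once for each list that holds it.

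The members and lists were chosen with earlier results of these data known. Named list genes were up to 4 called rises and 4 called falls per list by size of log2 ratio, given 5 FPKM or more in either group, plus chd, bmp2b, bmp4, bmp7a, wnt8a, ndr1, vsx1 and ntla; otx2 and msxc, below that level, were named after their values were seen, and polm and the rows beside each member were named for their position. The comparison with rows within 2-fold of a gene's level was added after seeing the data.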

Additional observations from a re-analysis of the deposited data

How the results depend on the processing

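No paired analysis was possible because the deposited table holds 1 value per gene and group with no replicate numbers. The 7 log2 ratios were recomputed with pseudocounts of 1 and 0.01 FPKM, centred on all rows of at least 1 FPKM (which lowers each by 0.12), centred on ribosomal protein genes (which raises each by 0.22) and, added after seeing the data, centred on rows of like level. Every ratio kept its direction except that of ved, which was 0.077 centred on ribosomal protein genes and 0.0091 centred on rows of like level. A pseudocount added to both groups cannot change a direction, so those settings bear only on the size of a ratio. Lowering all ratios could reverse only rises, and raising them could reverse only falls. Of the 3 called genes, flh and eve1 also passed a q-value under 0.01, and only flh had a fold of at least 1.5 (1 gene). At an unadjusted p under 0.05, vox and vent joined them (5 genes). With a fold minimum of 1.5 the calls numbered 5 on the dorsal, 4 on the ventral, 2 on the axis and 7 on the homeobox list. At q under 0.01 they numbered 7 on the dorsal, 6 on the ventral, 3 on the axis and 7 on the homeobox list. At an unadjusted p under 0.05 from Cuffdiff they numbered 10, 13, 8 and 12, in the same order. The share of all tested rows at these changed thresholds of fold, q and p was not computed. Whether the counts for the members or lists differ from that share was therefore not assessed. The Bonferroni adjustment over tested rows gave 0 calls for the members and for each list, since the lowest p in the table, 5e-05, cannot pass it; at an unadjusted p under 0.05 Cuffdiff gave 5 members. The ventral median was 0.17 over genes of at least 10 FPKM, so its sign depended on that minimum. Depth is unknown, so what it limits cannot be given per gene.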

Other observations

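By value, the rows next to the 7 genes on the chromosomes did not share one direction. Those called were si:ch211-137a8.2, atp5g1 and dicer1, all higher in Dcp2-DN embryos. Most called rows were higher: 3051 of the 3695 among all tested rows. Of all tested rows, 20.6% were called higher and 4.35% lower. Rows not called included INPP5A beside vox (6.75 and 6.08 FPKM, mock first) and gnsb beside ved (65.2 and 66.9 FPKM). So did CLIP3 beside dharma (2.0 and 2.52 FPKM). The row CR759797.1, next to gsc in order but 323379 bases away, had no test (0.288 and 0 FPKM). The histone variant gene h2afvb beside ved measured 158 and 141 FPKM, mock first, and was not called. The row on the other side of dharma from CLIP3, si:ch211-137a8.2, rose from 21.6 to 35.5 FPKM (1.64-fold, q = 0.00109 in the authors' deposited table), while dharma, 12401 bases away, was not called. Beside eve1, the Hox gene hoxb13a lay 10402 bases away at 0.113 and 0.185 FPKM with no test, and the ATP synthase gene atp5g1, 37700 bases away, rose from 135 to 165 FPKM (1.22-fold, q = 0.0449 in the authors' deposited table), whereas eve1 fell. The microRNA gene mir202, 5211 bases from vent, was listed at 0 in both groups. The homeobox gene emx1 beside flh was at 0.431 and 0.952 FPKM with no test, and cdc25 on its other side was not called, at 159 and 180 FPKM. The gene dicer1, which makes microRNAs and is next to gsc on its other side, 74467 bases away, rose from 16.9 to 21.1 FPKM (1.25-fold, q = 0.0137 in the authors' deposited table).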
